A study of Homo sapiens with 8 samples.

Results

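The regions described here are the open chromatin regions of 5 stretches of human chromosome 19 that hold clusters of zinc finger genes. The stretches, called windows I to V, run from 11.6 to 12.7 Mb, from 19.7 to 24.5 Mb, from 36.6 to 38.6 Mb, from 43.9 to 45 Mb and from 52 to 59.1 Mb in the hg19 build. Every peak of the 8 deposited peak lists that lay in a window was taken, and peaks sharing at least 1 bp across lists were merged. This gave 260 regions of the 36845 in the whole genome. The other 1108 regions of chromosome 19 served as the comparison, with the 2069 regions of chromosomes 17 and 22, which are also rich in genes, beside them. No merged region crossed an edge of a window. The 10 regions just inside the edges were called in 1 to 8 lists, with a median of 5.5, and the 9 just outside in 1 to 8 lists, with a median of 7.

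Most genes of these clusters encode proteins with a row of C2H2 zinc fingers, each a small fold that holds a zinc ion and reads a few bases of DNA. Many also carry a KRAB domain, which recruits the co-repressor TRIM28 and with it histone methylation and heterochromatin, often at transposable elements. The clusters grew by repeated tandem duplication, and their gene bodies are known to carry the heterochromatin mark H3K9me3 while many of their promoters stay open. Window V also takes in the leukocyte receptor genes, which are expressed in blood cells.

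The cells were 293T, a human embryonic kidney line that expresses the SV40 large T antigen. ATAC-seq cuts open chromatin with a transposase that inserts sequencing adapters. Here crosslinked and permeabilised 293T cells were treated with the transposase and then passed over Q Sepharose, a strong anion exchange resin that holds negatively charged material. One library was made from the material that did not bind (FT, the flow-through), and one from each of 7 NaCl washes that followed one another on the same resin, at 20 mM (G20), 100 mM (G100), 200 mM (G200), 300 mM (G300), 500 mM (G500), 700 mM (G700) and 1000 mM (G1000). All 8 libraries therefore share the line, the crosslinking and the tagmentation, and none is an untreated or unfractionated control. The stated purpose of the series was to find differences in open chromatin and in binding motifs among the fractions. There was 1 library per fraction, so no value below has an error between replicates, and intervals cover counting error only. The lists differ in length and depth, the shortest being that of G700 with 8102 peaks. The deposited lists name no genes, and no hg19 gene annotation was used here. Regions are therefore given by position, the cluster label and the cell line could not be checked against genes, and exon, intron and promoter positions were not analysed here.

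The reference gives the genes behind the label. By symbol, the RefSeq annotation of GRCh38.p14 holds 571 protein-coding zinc finger genes, of which 267 (46.8%) are on chromosome 19, among 1451 coding genes there. Of these 267, 242 (90.6%) are next to another zinc finger gene, and 18 unbroken runs of at least 5 hold 213 of them. The longest run, from ZNF737 to ZNF681, has 27 genes. The windows need not hold every run, so the comparison regions may include some zinc finger genes. Promoter sequences, from 250 bases before to 50 after the start of the gene, were matched for 230 of the 267. They are shown as background on what these clusters carry, because their GRCh38.p14 positions cannot be set against hg19 peaks. One promoter is printed for each of the 5 longest runs, so that the runs can be compared: the first gene of the run whose promoter holds the ETS word CCGGAAGT on either strand, or the first gene of the run where none does. Capitals mark CCGGAAGT and CCAAT (the NFY word) on the strand shown or, as ACTTCCGG and ATTGG, on the other. Each sequence is RefSeq's, chromosome 19 of GRCh38.p14, 300 bases, 5′ to 3′ on the gene's strand (plus for ZNF627, ZNF283 and ZNF419, minus for ZNF737 and ZNF461).
ZNF627: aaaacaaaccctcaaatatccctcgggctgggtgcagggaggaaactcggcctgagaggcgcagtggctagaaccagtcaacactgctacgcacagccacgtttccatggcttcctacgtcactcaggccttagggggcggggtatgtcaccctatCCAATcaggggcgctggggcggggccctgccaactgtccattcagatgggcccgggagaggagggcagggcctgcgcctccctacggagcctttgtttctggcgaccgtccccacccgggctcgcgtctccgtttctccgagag
ZNF737: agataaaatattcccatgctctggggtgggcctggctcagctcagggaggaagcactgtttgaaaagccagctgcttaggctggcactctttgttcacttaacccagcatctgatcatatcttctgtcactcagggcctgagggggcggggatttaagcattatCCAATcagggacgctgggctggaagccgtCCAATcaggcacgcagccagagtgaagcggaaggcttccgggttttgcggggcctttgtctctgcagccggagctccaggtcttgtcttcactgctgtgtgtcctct
ZNF461: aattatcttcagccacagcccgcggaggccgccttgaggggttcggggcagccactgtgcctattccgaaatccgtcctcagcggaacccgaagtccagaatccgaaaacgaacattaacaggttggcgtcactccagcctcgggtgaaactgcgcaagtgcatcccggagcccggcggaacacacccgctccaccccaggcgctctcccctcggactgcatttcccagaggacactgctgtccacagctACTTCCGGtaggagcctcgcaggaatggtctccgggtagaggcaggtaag
ZNF283: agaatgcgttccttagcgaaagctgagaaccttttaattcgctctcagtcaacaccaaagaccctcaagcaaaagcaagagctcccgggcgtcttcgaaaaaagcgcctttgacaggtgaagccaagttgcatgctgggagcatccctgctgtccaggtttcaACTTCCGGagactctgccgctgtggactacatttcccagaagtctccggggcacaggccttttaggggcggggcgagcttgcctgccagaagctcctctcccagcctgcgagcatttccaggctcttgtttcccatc
ZNF419: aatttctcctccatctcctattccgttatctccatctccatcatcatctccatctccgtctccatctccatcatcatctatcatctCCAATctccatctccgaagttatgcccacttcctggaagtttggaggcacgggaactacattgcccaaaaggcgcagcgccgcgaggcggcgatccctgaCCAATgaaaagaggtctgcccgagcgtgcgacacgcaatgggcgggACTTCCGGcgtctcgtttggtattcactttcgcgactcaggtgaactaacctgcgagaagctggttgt

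The runs differed in these words. In the run from ZNF627 to ZNF791, CCAAT was present in 22 of 23 promoters, GGGCGG (the SP1 word) in 22 and CCGGAAGT in 0. In the run from ZNF737 to ZNF681, CCAAT was present in 21 of 21, GGGCGG in 17 and CCGGAAGT in 0. The run from ZNF772 to ZNF256 was the richest in the ETS word, with CCGGAAGT in 15 of 20 promoters, CCAAT in 16 and GGGCGG in 9. The run from ZNF565 to ZNF793 had CCGGAAGT in 6 of 23, CCAAT in 5 and GGGCGG in 7, and that from ZNF283 to ZNF180 had them in 5, 4 and 6 of 16. For CCGGAAGT these runs lay between the others, and for CCAAT and GGGCGG below all 3. Runs were defined by symbol and gene order alone. Their members may be duplicates of one another, so their promoters cannot be taken as independent.

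Over all 230 matched promoters, CCGGAAGT was present in 46 (20.0%), against 4.40% of the other 955 coding promoters of chromosome 19 and 6.19% of all 15843 coding promoters of the same length. CCAAT was present in 52.6%, against 37.1% and 36.4%. TATAAA, the TATA box, was present in 2.17%, against 8.06% and 9.63%. The other words searched, on both strands, were GGGCGG (67.0%, against 66.1% and 58.5%), the NRF1 palindrome with its middle base free (12.2%, against 10.4% and 8.58%) and its exact form, which lies within it (2.17%, against 2.41% and 1.75%), AANATGGCG (YY1, 6.09%, against 6.81% and 4.81%), TGANTCA (AP-1, 6.96%, against 4.71% and 5.75%) and TGACGTCA (CRE, 3.04%, against 3.46% and 2.59%). The rarest words were TTTCGCGC (E2F, 5 promoters or 2.17%, against 0.524% and 0.814%), the CTCF core (3 promoters or 1.3%, against 3.14% and 2.70%) and the ZNF143 word (3 promoters or 1.3%, against 0.419% and 0.372%). The median GC content was 60.2%, against 64.0% and 62.7%. Long identical stretches were few in these promoters. A run of 50 bases was shared with a promoter elsewhere, coding or not, by 6 of the 230 (2.61%). Of the 15843 coding promoters 618 (3.90%) shared one. A match is a word in the reference sequence, and binding was not measured here.

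Open regions were sparser in the windows than on the rest of the chromosome. The comparison is with chromosome 19 alone, itself rich in genes, and no density was taken over the whole genome. The windows cover 16.1 Mb and held 16.1 regions per Mb, against 27.9 per Mb on the remaining 39.8 Mb, which leaves out the peak-free stretch of 3.52 Mb around the centromere position (24216629 to 27731857). The first 0.283 Mb of that stretch lies in window II and is counted there. Regions called in all 8 lists followed the same order, with 3.42 per Mb in the windows together and 5.03 per Mb outside. Not every window did: window IV, at 5.45 per Mb, lay above the outside value, and window III, at 5.00, about equalled it.

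Window II stood apart from the others with 25 regions on 4.8 Mb, or 5.21 per Mb. Windows I, III, IV and V held 19, 36, 29 and 151 regions, or 17.3, 18.0, 26.4 and 21.3 per Mb. In window II 2 stretches of over 300 kb held no peak in any list, chr19:19932606-20959038 (1026 kb) and chr19:21950669-23432824 (1482 kb). Window V had 4 such stretches, of which the longest were chr19:54976083-55574235 (598 kb) and chr19:57107153-57683659 (577 kb). The longest in windows I, III and IV measured 237.5, 163 and 91.8 kb. Window V also held the densest part, with 34 regions in 500 kb from 55657885 and 10 regions of all 8 lists in 500 kb from 55667620. The median distance between neighbouring regions was 20.5 kb in window V and 63.0 kb in window II.

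Windows I and II both had few regions shared by all lists per Mb and differed in the others. Window I had 1 such region among 19 (0.909 per Mb), and 12 of its regions were called in 5 to 7 lists. Window II had 5 among 25 (1.04 per Mb), and 7 of its regions were called in 1 list. Windows III, IV and V had 10, 6 and 33 regions of all 8 lists, or 5.00, 5.45 and 4.65 per Mb. All 7 window regions within 1 Mb of the centromeric peak-free stretch were in window II, and the 3 regions within 20 kb of the chromosome end were in window V.

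With all peaks kept, the window regions were called in more lists than other regions. Over all regions 40.7% were called in a single list. On the rest of chromosome 19 the share was 29.7% (exact 95% interval 27.0 to 32.5), and in the windows 40 of 260, or 15.4% (11.2 to 20.4). Regions of 5 to 7 lists made up 36.5% of the window regions (95, interval 30.7 to 42.7), 21.9% of the rest of the chromosome (243, 19.5 to 24.5) and 18.2% of all regions. Regions of all 8 lists made up 11.5% of all regions, 18.1% of the rest of the chromosome (200, 15.8 to 20.4) and 21.2% of the window regions (55, 16.4 to 26.6), so that the last pair of intervals overlapped. The lists' lengths enter these shares. With every list reduced to its 8102 strongest peaks, single-list regions were 21.2% of 193 window regions and 22.2% of 625 on the rest of the chromosome, and regions of 5 to 7 lists 28.0% and 23.4%, with overlapping intervals in both cases. The order for regions of all 8 lists then turned, to 21.8% in the windows and 26.4% outside, and it turned also among peaks with a −log10 q of at least 5, to 14.6% and 17.7%. Single-list regions among those stronger peaks were 19.2% in the windows and 25.6% outside, again with overlapping intervals. Over all regions, equal list length gave 31.5% in a single list, 20.7% in 5 to 7 and 18.0% in all 8. Among the stronger peaks the shares of all regions were 31.5%, 21.9% and 12.1%. In both settings the windows and the rest of chromosome 19 thus had lower single-list shares than all regions.

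**Figure D1:**
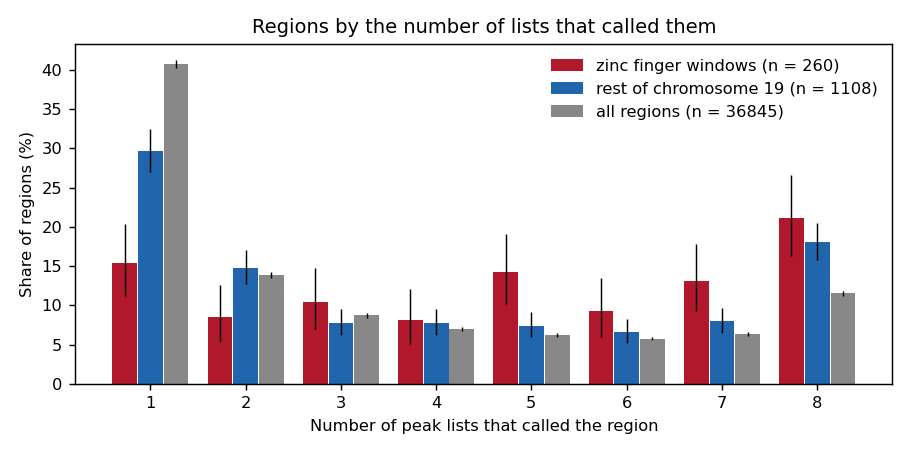
Share of regions (percent, vertical axis) by the number of peak lists that called them (horizontal axis), for the 260 window regions, the 1108 regions of the rest of chromosome 19 and all 36845 regions; bars start at 0 and lines are exact 95% binomial intervals (counting error only). The window regions have the lowest share at 1 list (15.4%) and higher shares than both other sets at 5 to 8 lists.

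The missing list was nearly always a high-salt one. Of the 34 window regions called in exactly 7 lists, 17 lacked G700, 10 lacked G500, 7 lacked G1000 and 0 lacked any other. These 3 lists are also the shortest on the chromosome. On the rest of the chromosome 48, 16 and 13 of 88 such regions lacked the same 3 lists. The 40 single-list regions came from FT (10), G20 (10), G200 (8), G300 (6), G100 (4), G700 (1), G1000 (1) and G500 (0). The 329 outside came from FT (115), G200 (76), G20 (57), G300 (38), G100 (19), G500 (11), G1000 (8) and G700 (5). In both sets the 3 high-side lists gave the fewest. The median −log10 q was 3.63 for the 40 and 3.24 for the 329.

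Merged regions of the windows were wider. Their peaks were less often strong than those of the rest of the chromosome in 7 of 8 lists. The merged window regions had a median width of 715 bp, against 611.5 bp on the rest of the chromosome and 529 bp over all regions. Among regions of all 8 lists the medians were 942, 858 and 938 bp, so the width there was that of such regions in general. Single peaks differed less: their median width was above that of the rest of the chromosome in 6 lists (626 against 560.5 bp in FT) and below it in G200 (480 against 521.5 bp) and G500 (476 against 477.5 bp). The share of peaks with a −log10 q of at least 20 was 8.68% in the windows and 12.3% outside for FT, 8.78% and 15.1% for G20, 4.05% and 6.79% for G100, 10.2% and 13.6% for G200, 8.25% and 11.8% for G300, 0.885% and 5.13% for G500, and 4.50% and 5.57% for G1000. Only G700 had the other order, with 2.2% (2 peaks) and 1.97% (6 peaks). The highest −log10 q in the windows was 69.0, in G300. The medians were closer, and in FT, G20 and G300 the window median was the higher one (8.77 against 7.74, 8.38 against 8.14 and 8.20 against 8.05). Against all peaks of the same list, the window median was higher in every library (8.77 against 5.89 in FT, 5.64 against 5.26 in G1000). The share of at least 20 was above that of all peaks in FT, G20, G200 (10.2% against 5.57%), G300 and G1000. It was below in G500 (0.885% against 3.07%) and G700, and about equal in G100.

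The local background that the peak caller used had a lower median at window peaks in every library. It can be read back from each peak (how is given under the processing). Its median at window peaks, in reads per kb, was 4.75 for FT, 3.00 for G20, 2.30 for G100, 2.30 for G200, 3.20 for G300, 2.50 for G500, 2.2 for G700 and 2.70 for G1000. At the other peaks of chromosome 19 it was 6.55, 4.48, 3.40, 3.60, 4.45, 3.13, 2.60 and 3.10 in the same order of libraries, above the window value in 8 of 8. Reads at the peak summit were the same or fewer too, with medians of 16 against 16 in FT, 12 against 14 in G20 and 9 against 10 in G700. The fold enrichment of summit over local background had a higher median in the windows for FT (6.91 against 5.92), G20 (7.05 against 6.76), G300 (7.05 against 6.57) and G500 (6.35 against 6.23), and a lower one for the other 4 libraries. A local background counts open and closed chromatin within reach of the peak, including other peaks, and the sparser spacing of window regions was given above. Its part in the lower background was not tested.

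Each fraction gave the windows about the same share of its chromosome 19 peaks. FT had 219 of 1031 peaks in the windows (21.2%), G20 had 205 of 896 (22.9%), G100 had 148 of 619 (23.9%) and G200 had 177 of 851 (20.8%). G300 had 194 of 796 (24.4%), G500 had 113 of 503 (22.5%), G700 had 91 of 395 (23.0%) and G1000 had 111 of 506 (21.9%). G200 was the lowest and G300, the next wash, the highest, and all 8 exact 95% intervals overlapped. Over the 7 washes the share showed no trend with NaCl that passed the test. The rank correlation (Spearman's rho) was −0.21 (exact two-sided permutation over the 5040 orders, p = 0.662, adjusted over 6 trends 0.794), and the linear one (Pearson's r) −0.24 (exact permutation p = 0.604, adjusted 0.815). Leaving out G700 and G1000, whose salt lies farthest from the middle, r over the remaining 5 was −0.08.

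**Figure D2:**
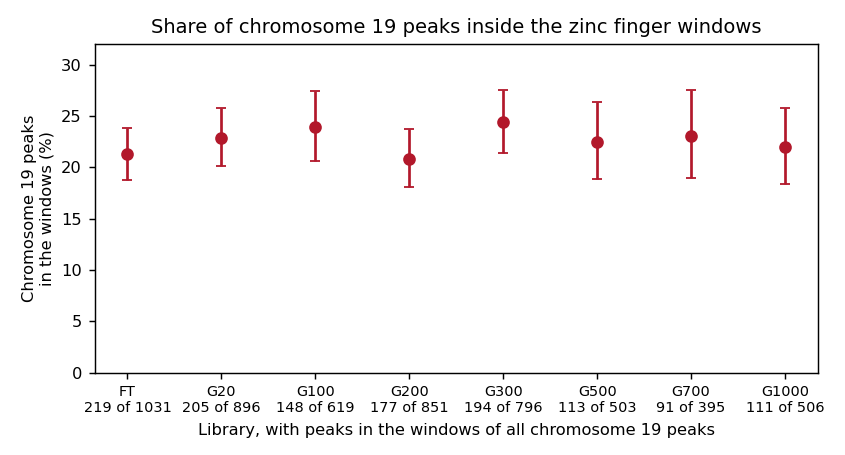
Percent of each library's chromosome 19 peaks that lie in the zinc finger windows (vertical axis, from 0) for the 8 libraries in order of elution (horizontal axis, with the peak counts); points are single libraries and lines exact 95% binomial intervals. The shares run from 20.8% (G200) to 24.4% (G300), and all intervals overlap.

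Window I had the largest coefficients of the 5 windows. Its share of chromosome 19 peaks had a rho of −0.71 with NaCl (exact permutation p = 0.0881, adjusted 0.529) and an r of −0.89 (exact permutation p = 0.00952, adjusted 0.0571), neither of which passed after adjustment. The call on r depended on the lists used: at equal list length r was −0.93 (exact permutation p = 0.00317, adjusted 0.019) and rho −0.89 (adjusted 0.0738), and at a −log10 q of at least 5 r was −0.90 (adjusted 0.0476) and rho −0.82 (adjusted 0.205). With FT added by rank r was −0.66 (adjusted 0.24). Without G700 and G1000 r was −0.27 with all peaks, −0.56 at equal list length and −0.47 among the stronger peaks, each over 5 libraries, so the relation rested in large part on those 2. They gave window I 1.27% and 1.19% of their chromosome 19 peaks, and the other 6 libraries 1.65% (FT) to 1.90% (G20). FT and G20 each had 17 peaks in window I, G200 and G300 each 15, G100 had 11, G500 had 9, G1000 had 6 and G700 had 5. Windows II, III, IV and V had a rho of −0.21, 0.50, −0.32 and −0.11, with adjusted exact permutation p-values of 0.794, 0.794, 0.794 and 0.840. Their r was −0.13, 0.64, −0.39 and −0.11, with adjusted exact permutation p-values of 0.815, 0.329, 0.765 and 0.815.

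Some window regions were called in the first fractions and lost from the last washes. FT, G20 and G100 are called the low side here, and the last 3 washes (G500 and up) the high side. Of the 9790 regions of the genome called in all 3 low-side lists, 11.7% (1143) were called in no high-side list. In the windows 22 of 136 were, or 16.2% (10.4 to 23.5), against 34 of 399 on the rest of chromosome 19, or 8.52% (5.97 to 11.7), and 93 of 546 on chromosomes 17 and 22, or 17.0% (14 to 20.5). The window share thus lay between that of the rest of the chromosome and that of chromosomes 17 and 22, with an interval that includes the genome's 11.7% and overlaps that of the rest of the chromosome. With equal list length the order against the rest of chromosome 19 turned, to 1 of 72 (1.39%) and 12 of 259 (4.63%), with 2.66% over all regions. That cut is unlike among the lists: it kept a −log10 q from 7.89 up in FT and 7.18 in G20, but from 1.32 up in G700. Regions weaker than that in FT or G20 leave the low side by construction, so this setting cannot check their share. Without G100 the count was 44 of 185 (23.8%), against 19.9% outside and 24.1% over all regions. At a −log10 q of at least 5 the count was 19 of 85 (22.4%), against 14.6% outside and 15.6% over all regions. Without FT, G20, G500, G700 or G1000 the window share was 16.8% (without FT) to 23.5% (without G500). It was above the rest of the chromosome and all regions each time. Intervals were not taken for these settings. The reverse set, called in all 3 high-side lists and no low-side list, had 0 members in the windows and 2 in the whole genome (0.00543%). That count depends on the cut too. At equal list length, with its unlike thresholds, the genome had 80 such regions beside 130 low-side ones, and the windows and the rest of chromosome 19 had 0. At a −log10 q of at least 5 in every list, the genome had 0 beside 907.

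The low-side regions were weak peaks. The 22 had a median −log10 q of 5.75 over the low-side lists, against 13.2 for window regions of all 8 lists. Read by strength, 3 of 4 window regions with a mean low-side −log10 q under 4 were lost on the high side, 9 of 16 (56.2%) from 4 to 6, 8 of 40 (20.0%) from 6 to 9, and 2 of 76 (2.63%) at 9 or more. The rest of the chromosome lost 4 of 9, 14 of 50 (28.0%), 11 of 83 (13.3%) and 5 of 257 (1.95%), and all regions 50.4%, 30.9%, 12.4% and 1.08%. The window value was above that of the rest of the chromosome in all 4 bands, and the exact 95% intervals of the pair overlapped in each. Of the 22, 14 were called in G200 and 15 in G300, 10 of them in both, and 3 in neither.

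**Figure D3:**
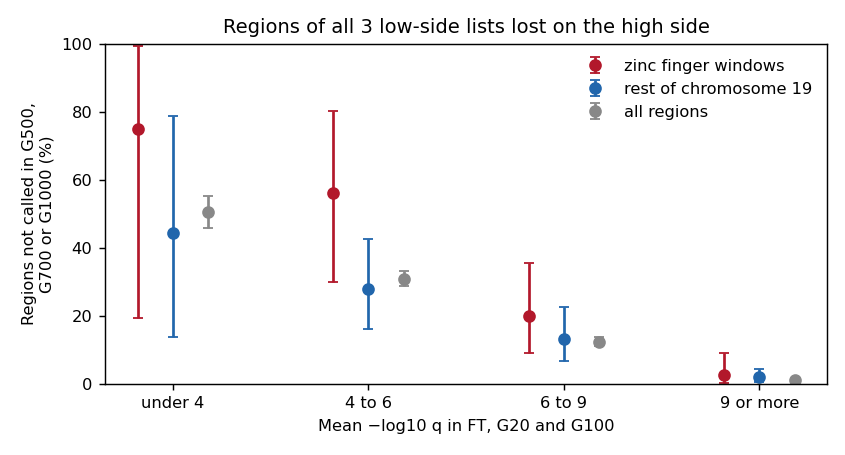
Percent of the regions called in FT, G20 and G100 that were called in none of G500, G700 and G1000 (vertical axis, from 0), by the mean −log10 q in the low-side lists (horizontal axis, 4 bands), for the windows, the rest of chromosome 19 and all regions; lines are exact 95% binomial intervals. The share falls with strength in all 3 sets, from 75%, 44.4% and 50.4% to 2.63%, 1.95% and 1.08%.

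The 3 low-side regions with the best mean rank lie in windows II, IV and V. Region II-c (chr19:23869532-23870536) had a −log10 q, from FT to G300, of 8.41, 7.27, 6.03, 5.96 and 11.6, from 12, 10, 9, 8 and 15 summit reads, and was called in none of the 3 higher washes. Region IV-b (chr19:44079334-44080210) had values of 6.60, 9.38, 15.1, 3.79 and 9.04 in the same 5 libraries, from 13, 13, 18, 7 and 13 reads, with its highest value in G100. Region V-a (chr19:53073134-53073897) was called in FT, G20 and G100 alone, at 8.24, 6.0 and 8.19 from 12, 8 and 11 reads. These peaks rest on 7 to 18 reads. The genome background was 1.12 to 2.36 reads per kb in the low-side libraries and 0.917 to 1.03 in the high-side ones, and the part of this difference in depth was not tested.

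The regions described next are the 2 strongest per window among those called in all 8 lists, which window I has 1 of. Region V-b (chr19:54640545-54641486) had a −log10 q, in the order FT to G1000, of 38.7, 46.7, 21.2, 51.4, 69.0, 18.7, 20.5 and 25.5. Its summit reads were 58, 61, 31, 65, 83, 27, 28 and 34 in that order. Region V-c (chr19:54693261-54695072), at 1812 bp also the widest of the windows, had values of 36.2, 46.1, 32.3, 55.6, 43.9, 19.2, 16.1 and 28.3 from 75, 73, 54, 89, 75, 37, 30 and 46 reads. In V-b G300 was the highest library and in V-c G200, and the 3 high-side libraries were below FT, G20 and G300 in both. The regions are 51.8 kb apart, and both lie before the 598 kb stretch without peaks.

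In window IV, region IV-c (chr19:44172154-44173361) was the strongest, with 47, 55, 43, 62, 67, 37, 25 and 36 reads from FT to G1000 and a −log10 q from 14.9 in G700 to 44.7 in G300. Region IV-a (chr19:43967353-43968400) had 41, 41, 20, 34, 44, 21, 16 and 19 reads. In window II, region II-b (chr19:19886812-19887790) had 36, 46, 22, 27, 38, 15, 24 and 22 reads, with its highest −log10 q in G20 (39.2). Region II-a (chr19:19774213-19775249) had 30, 28, 22, 18, 21, 16, 16 and 9 reads. Both strong regions of window II lie in its first 200 kb, before its first long stretch without peaks.

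In window III, region III-a (chr19:36705314-36706198) had 41, 38, 23, 34, 29, 19, 15 and 29 reads and the closest summits of all window regions, within 31 bp over the 8 lists. Region III-b (chr19:36979895-36980949) had 33, 25, 22, 23, 25, 17, 10 and 18 reads. The single all-list region of window I, I-b (chr19:12661840-12662735), had 22, 18, 18, 24, 16, 12, 7 and 9 reads. In each of these regions the counts were highest in FT, G20, G200 or G300 and lowest in one of the 3 high-side libraries, which also have fewer reads in general. The read counts below are therefore set against the numbers expected from all regions.

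The remaining named regions were chosen for width or for standing in 1 list. Region I-a (chr19:11804609-11806246, 1638 bp) was called in 6 lists, from FT to G500, with a −log10 q of 7.64, 12.4, 4.89, 12.9, 8.99 and 7.49. Region V-d (chr19:56165110-56166649, 1540 bp) was called in all 8, with 29, 26, 23, 38, 27, 20, 10 and 14 reads. Region V-e (chr19:57683660-57684014, 355 bp), called in FT alone, had the highest −log10 q of the 40 single-list regions (11.0, from 15 reads), and the 577 kb stretch without peaks ends at it.

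**Figure D4:**
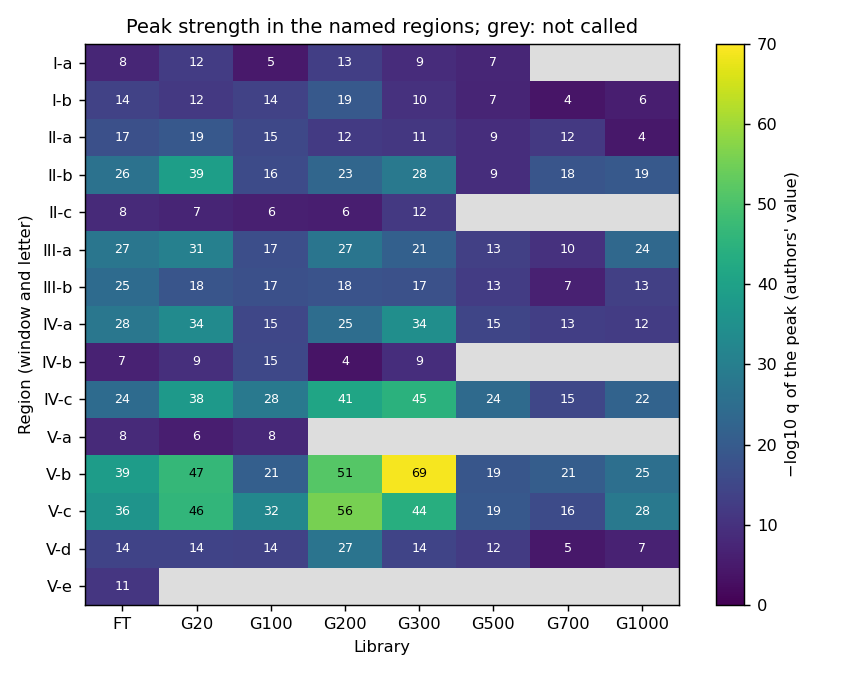
Peak strength of the 15 named window regions (rows) in the 8 libraries (columns, in order of elution); colour and printed value give the authors' −log10 q, and grey cells were not called. V-b and V-c reach the highest values (69.0 in G300 and 55.6 in G200), and the grey cells are at the high-salt end except in V-a, which was called in FT, G20 and G100 alone, and V-e, called in FT alone.

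The place of the summit varied within the shared regions. In the 55 window regions of all 8 lists the highest and lowest summit positions were a median of 252 bp apart, against 202 bp on the rest of the chromosome and 231 bp over all 4241 such regions. All summits lay within 100 bp in 2 of the 55 (3.64%), 21 of the 200 outside (10.5%) and 7.24% of all.

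Once the libraries' overall read numbers in ordinary regions were allowed for, 1 window region differed between a library and the other 7. The count depends on that scaling: with expected shares from each library's background it was 25 of the 54 tested, against 1324 of 4220 over the genome. In 24 of the 25 G200 was higher, and the genome's share of such calls is not given here. Without G200 the count was 0 (44 over the genome), where the 1 call, itself in G200, could not recur. The test was an exact two-sided binomial test of the recovered summit reads, run over 4220 regions of all 8 lists and 8 libraries with Benjamini-Hochberg adjustment over all 33760 tests. It compares these libraries, not conditions. Over the genome 105 of the 4220 regions (2.49%) passed in some library. Of the 54 window regions that could be tested, 1 passed, and of the 199 on the rest of the chromosome, 4. The window region was V-c, which had 89 of its 479 reads in G200 where 59.7 were expected, 1.49 times the expected number (adjusted p = 0.0272, exact binomial). Regions that passed with G200 higher were 0.711% of those tested over the genome. At an unadjusted p under 0.05, 28 of the 432 window tests (6.48%) passed, against 5.55% of all tests. The next smallest p-values belonged to chr19:55896477-55897498, with 19 reads in G300, 0.538 times the expected number (adjusted p = 0.183, exact binomial), and to chr19:59055049-59056100, with 57 reads in G20, 1.48 times the expected number (adjusted p = 0.203, exact binomial). Both were picked after their values were seen.

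No tested window region passed the test of the low against the high side. Only regions called in all 8 lists entered it, so the 22 low-side window regions could not be tested. The smallest adjusted p was 0.603 (exact binomial), and 2 of 54 had an unadjusted p under 0.05. Over the genome 11 of 4220 regions passed with more low-side reads than expected (0.261%) and 3 passed with more high-side reads (0.0711%). The median log2 ratio of low-side to high-side reads, each over its expectation, was 0.07 in the windows, 0.14 on the rest of the chromosome and −0.00 over all regions. In the windows 34 of 54 (63.0%) were above 0, on the rest of the chromosome 69.8% and over all regions 49.7%.

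Summed over the 52 window regions away from the chromosome end and the centromeric peak-free stretch, G200 held more reads than expected. Its ratio of observed to expected reads was 1.18 (95% Poisson interval 1.12 to 1.25). The ratios of FT, G20, G100, G300, G500, G700 and G1000 were 1.04 (0.991 to 1.10), 0.988 (0.937 to 1.04), 0.954 (0.894 to 1.02), 0.955 (0.905 to 1.01), 0.928 (0.863 to 0.997), 0.928 (0.858 to 1.00) and 0.971 (0.905 to 1.04). On this scale G200 was the single library above the expected number beyond counting error, and G500 the single one below it. With expected shares from each library's background, G200 was again above, at 1.90 (1.80 to 2.01), but FT (0.797, 0.758 to 0.838) and G700 (0.854, 0.789 to 0.923) were the ones below, and G500 was at 0.948 (0.882 to 1.02). The G200 excess was not particular to the windows. G200 had a ratio of 1.23 (1.20 to 1.26) on the rest of chromosome 19 and 1.20 (1.17 to 1.24) on chromosomes 17 and 22, and against the rest of chromosome 19 as the expectation the windows' G200 ratio was 0.960 (0.908 to 1.01).

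**Figure D5:**
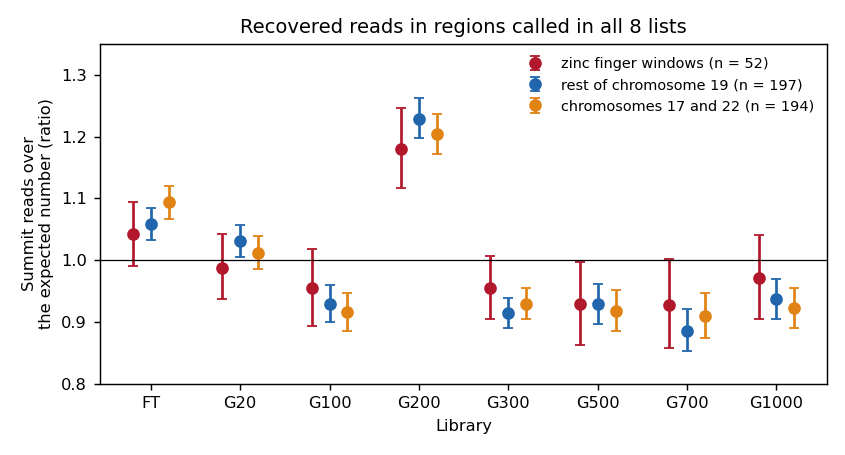
Summit reads over the expected number (vertical axis, ratio, not from 0) in each library (horizontal axis) for regions called in all 8 lists, in the windows (n = 52), on the rest of chromosome 19 (n = 197) and on chromosomes 17 and 22 (n = 194); lines are 95% Poisson intervals and the horizontal line marks the expected number. G200 is high in all 3 sets, at 1.18, 1.23 and 1.20.

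The G200 ratio varied among the windows, most of which had few such regions. Window V had a G200 ratio of 1.24 (1.16 to 1.32, 33 regions) and window IV 1.14 (0.968 to 1.34, 6 regions). Window III had 1.03 (0.863 to 1.21, 9 regions) and window II 0.892 (0.696 to 1.12, 5 regions). The single region of window I had the highest ratio, 1.53 (0.979 to 2.27). These counts take in the other 2 regions, 1 near the chromosome end and 1 beside the peak-free stretch. The intervals of windows II and V did not overlap, and the difference between them was not tested. Window III was instead high in FT, at 1.22 (1.07 to 1.39). Region by region, the G200 ratio was above 1 in 36 of 54 window regions (66.7%), with a median of 1.15, against 171 of 199 on the rest of the chromosome (85.9%), with a median of 1.21, and 44.3% of all regions, with a median of 0.961. The peaks of the G200 list carry a name of their own (G50_200), and whether that marks another handling of the library is not given in the sources used here.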

How the data were processed

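The authors' files are MACS2 peak lists, 1 per library. The submitters' processing notes name Bowtie2 2.2.6, MACS2 2.2.1 and HOMER and the builds hg19 and mm10; the positions are taken as hg19, and of the read shift, the filters or the calling settings nothing is given in the sources used here. Per peak the authors deposited a score, a fold enrichment ratio at the summit, a −log10 p, a −log10 q and the summit's place. Values per peak are the authors' own. The 5 windows and the word lists were chosen with earlier results of these data known.

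Reads were recovered from the deposited values: the fold is (reads + 1) over (local background + 1) and p a Poisson tail, and a whole number of reads matching within 0.001 was taken. Expected shares per library came from regions on placed chromosomes over 1 Mb from the longest peak-free stretch and over 20 kb from chromosome ends. Genome background, from the lowest local background of each list, was 0.817 (G200) to 2.36 (FT) reads per kb, so counts per region are small. Reads are not unique molecules. Named regions were, by rule, the 2 of best mean rank by −log10 q among those of all 8 lists per window, those passing a read test, the 3 low-side ones of best mean rank, the 3 widest and the strongest of a single list. Intervals are exact binomial or Poisson, at 95%. The scripts were tested on simulated data. Python 3.11.15, numpy 2.4.6, pandas 2.3.3, scipy 1.17.1 and matplotlib 3.10.9 were used. Gene groups, words at peaks and cell markers planned with an hg19 annotation were not analysed here.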

Additional observations from a re-analysis of the deposited data

How the results depend on the processing

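No paired analysis was possible because each fraction has 1 library. With FT added by rank before G20, the trend of the windows' share reversed to a rho of 0.12, and those of windows II and V to 0.024 and 0.048. Equal list length reversed window III to −0.071 and window IV to 0.036, and a −log10 q of at least 5 reversed window III to −0.29 and window V to 0.29; none of these reversed values passed. In window I r passed after adjustment at equal list length and among peaks with a −log10 q of at least 5, and in no other window or alternative did rho or r pass. Window regions of all 8 lists fell from 55 to 31 at a −log10 q of at least 5 and to 7 where all summits had to lie within 100 bp of that of G700, and without 1 library numbered 55 to 72, the highest without G700. Low-side regions fell from 22 to 1 at equal list length, where the cut leaves out weak FT and G20 peaks. At a −log10 q of at least 5 they numbered 19. Without 1 library they numbered 23 to 44, an alternative chosen after seeing the data, as were those for single-list shares. The calls of 1 library against the others fell from 1 to 0 without G200, the library of that call, and remained 1 in number without FT. With expected shares from each library's background they rose to 25 of 54 (1324 of 4220 over all regions), 24 of them with G200 higher. That scaling moved the summed ratios to 0.797 in FT, 1.90 in G200 and 0.854 in G700. Against the rest of chromosome 19 those that moved were FT (0.984), G100 (1.03), G200 (0.960), G300 (1.04), G500 (1.00) and G700 (1.05). The causes were not tested. Of the alternative values of the leading results 43 stayed within their limits, 15 moved and 1 reversed. Depth limits all calls of single regions: the median window peak had 9 to 16 summit reads.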
